A study of Mus musculus with 6 samples.

Results

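The genes described here encode the mitochondrial solute carriers of the SLC25 family, chosen as every gene probe whose RefSeq accession belongs to a mouse gene with a symbol beginning Slc25a. The array carried 56 such probes for 47 genes, among 39429 gene probes in all. Carriers of this family sit in the inner mitochondrial membrane (a few are in peroxisomes or in the outer membrane) and exchange nucleotides, phosphate, carboxylates, amino acids, carnitine esters, metals and cofactors between cytosol and matrix. They set what the respiratory chain and the matrix enzymes can draw on. The podocyte, the epithelial cell that wraps the glomerular capillary, has a large actin-based process network to supply with ATP.

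RNA came from conditionally immortalised mouse podocytes that carry a temperature-sensitive SV40 T antigen, grown at 33 °C and then held at 37 °C for 10 days to differentiate. All cells had received a lentiviral pGIPZ construct. The groups were shTug1 clone 2 and shTug1 clone 3, both given a hairpin that targets Tug1, a long noncoding RNA, and shControl, given a scrambled hairpin. Each group had 2 arrays, described as biological replicates, so each Tug1 group stands for a single clone and the arrays of a clone measure the spread within it. RNA was hybridised in 1 colour (Cy3) to Agilent mouse arrays, and the labels set the shTug1 lines against the scrambled one.

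Values are log2 signals relative to the 75th percentile of the gene spots of the same array. That percentile was an intensity of 1055 and 949.3 in clone 2, 569.2 and 831.6 in clone 3, and 324.3 and 363.3 in shControl. The shControl pair was scanned from 1 slide and all 4 shTug1 arrays from another. In every comparison with shControl, slide and hairpin therefore cannot be told apart. The arrays of a group correlated at 0.982 in clone 2, 0.990 in clone 3 and 0.964 in shControl across the genes tested. Tug1 itself, on its probe measured on all arrays, read −1.86 and −1.88 in clone 2, −3.10 and −3.23 in clone 3, and −2.88 and −2.49 in shControl. It did not pass the test for the mean of the clones (log2 fold change 0.16, limma adjusted p = 0.65). In clone 2 it lay above shControl, against the label. A dimmer Tug1 probe, well above background on 3 arrays, also read higher in clone 2. Its values were −2.73 and −2.94 in clone 2, −6.36 and −3.58 in clone 3, and −6.21 and −6.38 in shControl. The groups are therefore named here by their labels only. Of 10 podocyte markers, 8 were well above background on both arrays of clone 2, 8 in clone 3 and 9 in shControl, with Podxl not well above background on any clone 3 or shControl array. Their summed signal, in multiples of the 75th percentile, was 18.2 on both clone 2 arrays, 11 to 16.4 in clone 3 and 31.6 to 33.0 in shControl. Sums of the other marker lists were also lower in the clones. In the order clone 2, clone 3 and shControl they were 38.6 to 40.2, 61.4 to 76.0 and 162 to 317 for 8 tubular markers (Slc12a1 was well above background in no group), 214 to 224, 238 to 318 and 553 to 563 for 8 mesangial and stromal markers (Des and Pdgfra in no group), and 2.53 to 2.67, 3.10 to 3.89 and 7.81 to 13 for 5 immune markers. For 6 endothelial markers (Emcn and Tek in no group) the sums were 1.05 to 1.06, 1.33 to 1.44 and 1.55 to 2.97. In bulk RNA fewer cells of a type and less RNA per cell cannot be told apart, and the part of these shifts in the Slc25a results was not tested.

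Differentiated podocytes of this line had a signal for most of the family. In all, 38 of the 47 genes passed the filter (a signal well above background on both replicates of 1 group or more) and were tested, 33 of them on all 6 arrays. Slc25a2, Slc25a10, Slc25a41, Slc25a43, Slc25a48 and Slc25a54 were well above background on no array, among them the ornithine carrier Slc25a2 and the dicarboxylate carrier Slc25a10. The remaining 3 were seen on isolated arrays only: the glutamate carrier Slc25a18 on shControl replicate 2, Slc25a30 on clone 2 replicate 2, and Slc25a53 on clone 2 replicate 1 and shControl replicate 1. Among the genes tested, Slc25a15 and Slc25a39 were well above background in clone 2 alone, and Slc25a16, Slc25a31 and Slc25a47 on 5 of the 6 arrays.

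The family split in both directions between the shTug1 clones and shControl, as did the genes of the whole array. At a limma adjusted p under 0.05, 6 of the 38 genes rose in the mean of the clones, 10 fell and 22 did not pass. Thus 15.8% of the Slc25a genes rose, against 10.2% of all 21473 genes tested, and 26.3% fell, against 30.4% of all genes. The rises counted in this paragraph include Slc25a39, which passed the filter only through clone 2, where it was bright. Its clone 3 and shControl values overlapped, so its call is a description. The log2 fold changes of the family ran from −1.83 to 2.63 with a median of −0.25, beside −0.64 for all genes. Because the median gene lies below 0 on this scale, falls are also set against it. Relative to the median gene the falls of Slc25a44 (−0.29), Slc25a3 (−0.37), Slc25a22 (−0.55), Slc25a11 (−0.64) and Slc25a36 (−0.67) were smaller than those of Slc25a38 (−0.94), Slc25a42 (−0.95), Slc25a46 (−1.11) and Slc25a21 (−1.19). All 4 shTug1 arrays lay above both shControl arrays for 7 Slc25a genes (18.4%, against 12.3% of all genes) and below both for 16 (42.1%, against 43.1%). After quantile normalization, where the median gene was at −0.27, 6 Slc25a genes rose and 7 fell (11.3% and 15.7% of all genes). Of the calls above, 5 of the 6 rises and 7 of the 10 falls passed there too. With normexp background correction 5 rose and 17 fell (9.19% and 59.3% of all genes). Leaving out clone 3 replicate 1 gave 1 rise (Slc25a39) and 0 falls by limma, with 7 and 10 at an unadjusted p under 0.05 (4.06% and 3.09% of all genes passed). Leaving out clone 3 replicate 2 gave 0 of each, with 9 and 9 at an unadjusted p under 0.05 (1.09% and 0.508% of all genes passed).

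**Figure D1:**
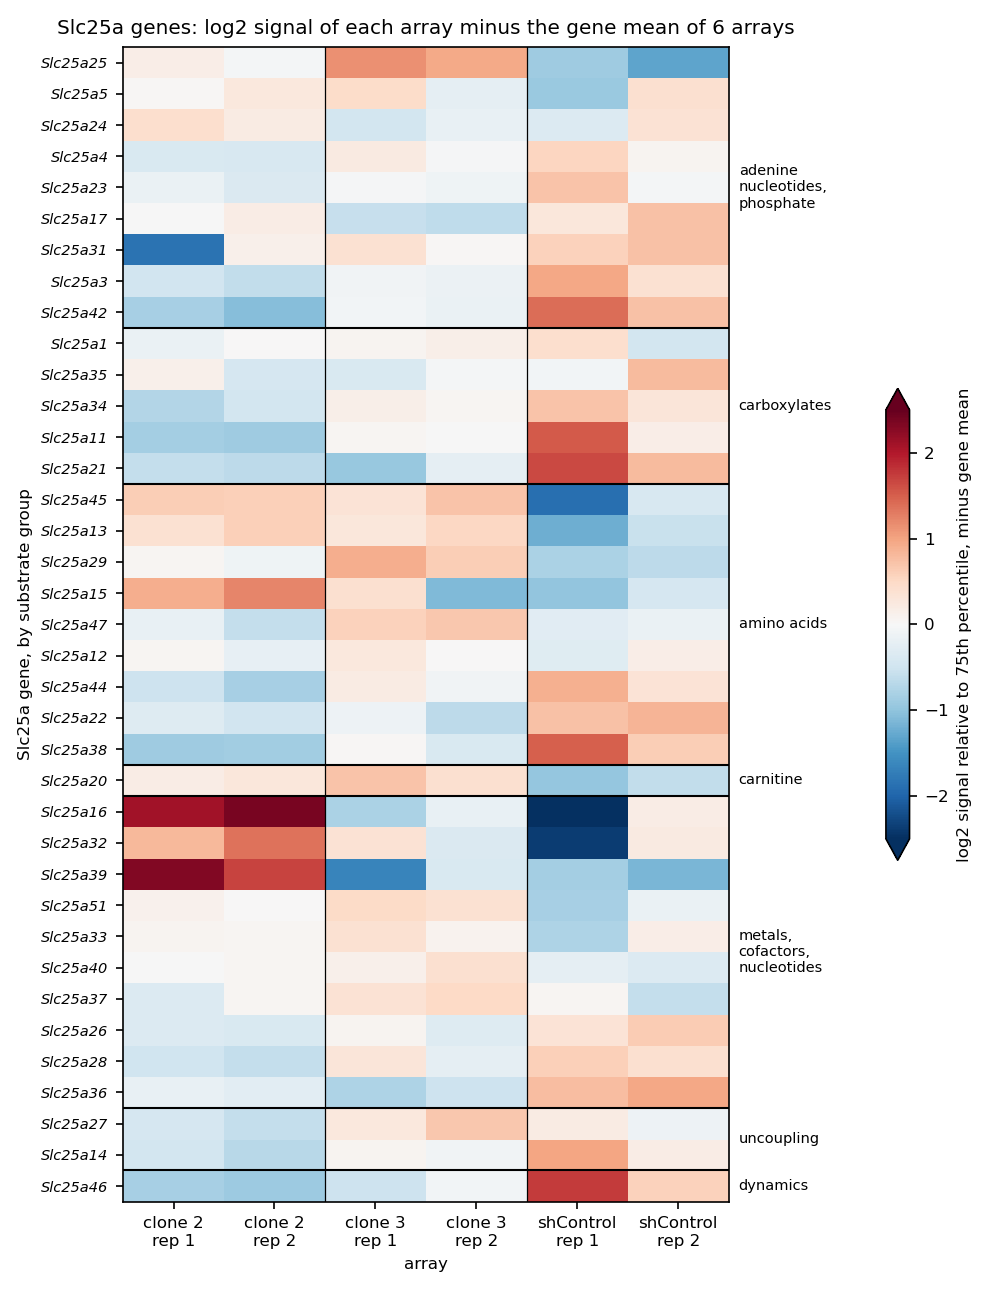
Each row is one of 37 tested Slc25a genes, ordered by substrate group, and each column an array of clone 2, clone 3 or shControl. Colour is the log2 signal relative to the array's 75th percentile minus the gene's mean over the 6 arrays, with red above and blue below it. Rows such as Slc25a42, Slc25a38 and Slc25a46 are red in the shControl columns, Slc25a45 and Slc25a13 are blue there, and Slc25a39 is red in clone 2 only.

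**Figure D2:**
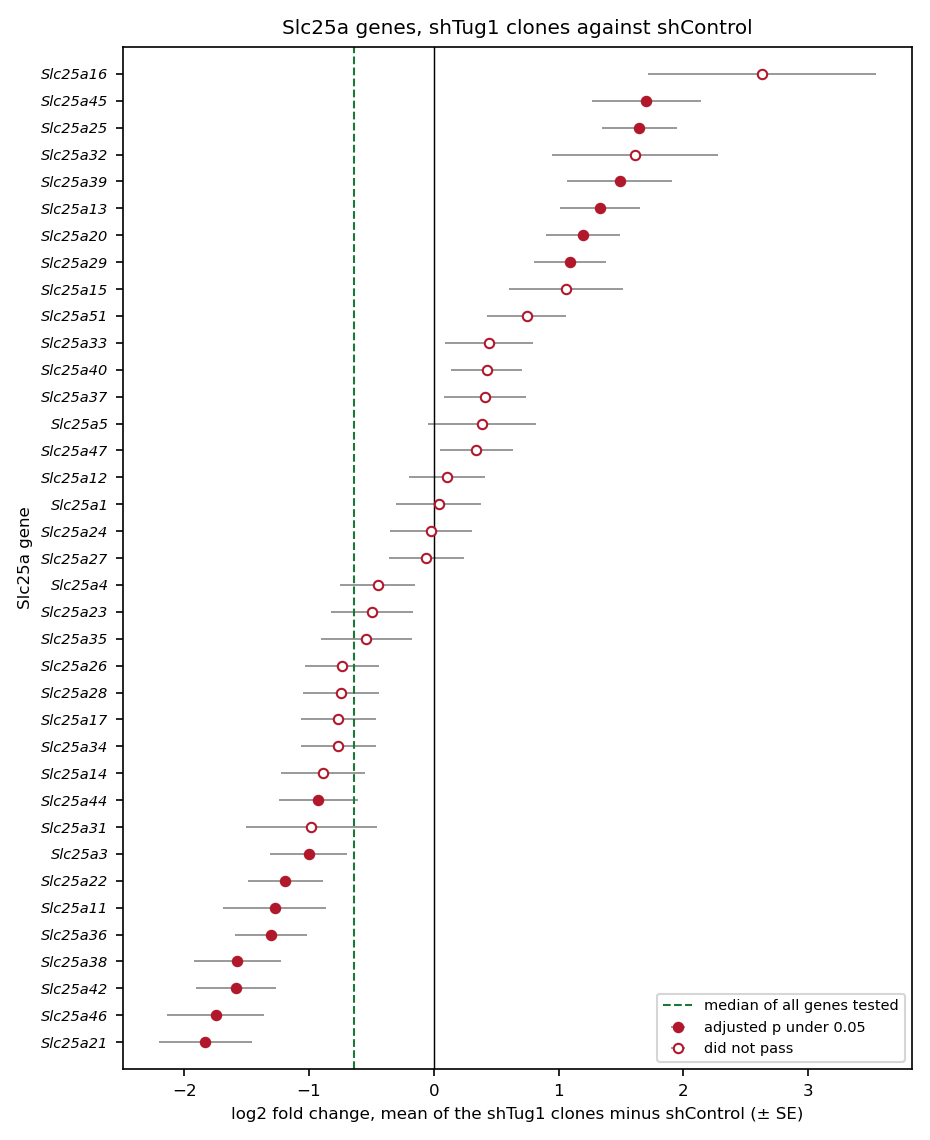
Points are log2 fold changes of 37 tested Slc25a genes for the mean of the shTug1 clones minus shControl, bars are standard errors, and filled points passed at adjusted p under 0.05. The dashed line marks the median of all genes at −0.64; the 6 filled points to the right lie between 1.09 and 1.70 and the 9 to the left between −0.93 and −1.83.

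Among the carriers of adenine nucleotides and phosphate, 1 of 9 tested genes rose, 2 fell and 6 did not pass. Of all genes, 10.2% rose and 30.4% fell. Slc25a25, a calcium-regulated carrier that exchanges ATP-Mg for phosphate, read −0.10 and −0.31 in clone 2 and 0.88 and 0.69 in clone 3, against −1.14 and −1.57 in shControl. The groups did not overlap, and it was higher by a log2 fold change of 1.65 (SE 0.30, limma adjusted p = 0.013). Its other probe gave 2.19 (SE 0.32, adjusted p = 0.0091 in the limma fit over all probes). The related calcium-regulated carriers Slc25a24 (−0.02) and Slc25a23 (−0.50) did not pass, nor did the peroxisomal carrier Slc25a17 (−0.76).

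Slc25a42, which brings coenzyme A into the matrix, fell. It read 1.85 and 1.61 in clone 2 and 2.61 and 2.52 in clone 3, against 4.07 and 3.40 in shControl. Its log2 fold change was −1.59 (SE 0.32, limma adjusted p = 0.0152). Relative to the median gene this is −0.95, with all 4 shTug1 arrays below both shControl arrays. After quantile normalization it was −1.0 and still passed (adjusted p = 0.0253).

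The phosphate carrier Slc25a3, which feeds phosphate to ATP synthase, read 5.99 and 5.85 in clone 2 and 6.37 and 6.32 in clone 3, against 7.43 and 6.85 in shControl. It fell by 1.0 on the log2 scale (SE 0.31, limma adjusted p = 0.036). That call depended on the scaling. After quantile normalization the log2 fold change was −0.01 (adjusted p = 0.98), with the authors' deposited series values it was 0.02, and a second probe of Slc25a3 gave −0.24 (adjusted p = 0.501). As deposited, before any scaling, the intensity of the first probe was 67045, 54585, 47077 and 66643 on the shTug1 arrays, against 55776 and 41813 in shControl, and the groups overlapped.

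The adenine nucleotide translocases, which swap matrix ATP for cytosolic ADP, did not pass. Slc25a4 read 6.93 and 6.91 in clone 2 and 7.54 and 7.28 in clone 3, against 7.85 and 7.38 in shControl. Clone 3 overlapped shControl, while both clone 2 arrays lay below it. The log2 fold change of −0.45 (adjusted p = 0.244 in limma) turned to 0.66 after quantile normalization (adjusted p = 0.0543) and to 0.67 with the deposited series values, where it passed (adjusted p = 0.0391). Its deposited intensities were 128914, 114271, 106141 and 129260 on the shTug1 arrays and 74972 and 60533 in shControl, so the direction of Slc25a4 depends on how the arrays are scaled. Slc25a5, the translocase of proliferating cells, read 3.99, 4.23, 4.43 and 3.74 on the shTug1 arrays, against 3.06 and 4.38 in shControl. The 2 shControl arrays spanned the others (log2 fold change 0.38, SE 0.43, limma adjusted p = 0.479). Slc25a5 has processed copies in the mouse genome, and whether its probe also reads them was not tested. Slc25a31, the germ-cell translocase, read −6.31 and −4.34 in clone 2 and −4.09 and −4.43 in clone 3, against −3.90 and −3.73 in shControl (log2 fold change −0.98, adjusted p = 0.157). It was not well above background on clone 2 replicate 1.

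Of the 5 tested carboxylate carriers, 0 rose and 2 fell at the adjusted threshold by limma, beside 10.2% and 30.4% of all genes. Slc25a21, which carries 2-oxoadipate and 2-oxoglutarate in lysine and tryptophan breakdown, had the most negative log2 fold change of the family. It read −2.38 and −2.46 in clone 2 and −2.75 and −2.03 in clone 3, against −0.14 and −1.01 in shControl. The difference was −1.83 (SE 0.37, limma adjusted p = 0.0155). It was −1.19 relative to the median gene, and quantile normalization left it at −1.80 (adjusted p = 0.0252). Slc25a11, the oxoglutarate–malate carrier of the malate–aspartate shuttle, read 3.38 and 3.33 in clone 2 and 4.27 and 4.22 in clone 3, against 5.76 and 4.38 in shControl. Both clones lay below shControl, but clone 3 by little against shControl replicate 2. The log2 fold change of −1.27 (SE 0.41, limma adjusted p = 0.0423) was −0.58 and no longer passed without shControl replicate 1 (adjusted p = 0.0835), was −1.97 without shControl replicate 2, and was −0.45 after quantile normalization (adjusted p = 0.213). The citrate carrier Slc25a1 (0.04), Slc25a35 (−0.54) and Slc25a34 (−0.76) did not pass.

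Of the 9 tested amino acid carriers, 3 rose, 3 fell and 3 did not pass, where 10.2% of all genes rose and 30.4% fell. Both aspartate–glutamate carriers of the malate–aspartate shuttle were measured on all 6 arrays. Slc25a13, or citrin, read 0.90 and 1.13 in clone 2 and 0.80 and 1.05 in clone 3, against −0.69 and −0.03 in shControl. The 4 shTug1 arrays lay close together above both shControl arrays, and the gene rose by 1.33 (SE 0.32, limma adjusted p = 0.0205, 2.52-fold). Slc25a12, its paralogue aralar, read 1.70, 1.44, 1.91 and 1.66 on the shTug1 arrays, against 1.34 and 1.80 in shControl, which overlap. Its log2 fold change was 0.10 (adjusted p = 0.79 in limma). The difference between these paralogues was not tested.

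Slc25a45, grouped here with the amino acid carriers, read −0.33 and −0.34 in clone 2 and −0.61 and −0.24 in clone 3, against −2.82 and −1.34 in shControl. The shControl arrays stood far apart but both lay below the others. It rose by 1.70 (SE 0.44, limma adjusted p = 0.0231), a value of 0.96 without shControl replicate 1 (adjusted p = 0.0487) and of 1.81 after quantile normalization, where it narrowly missed the threshold (adjusted p = 0.0516). With normexp correction it was 1.08 (adjusted p = 0.00739). Slc25a29, a carrier of basic amino acids, read −2.03 and −2.21 in clone 2 and −1.19 and −1.48 in clone 3, against −2.89 and −2.75 in shControl. All 3 groups were separate, and the gene rose by 1.09 (SE 0.29, limma adjusted p = 0.025), although only by 0.33 with normexp correction (adjusted p = 0.22).

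Slc25a38, the glycine carrier that supplies haem synthesis, read 2.90 and 2.91 in clone 2 and 3.81 and 3.41 in clone 3, against 5.27 and 4.40 in shControl. It fell by 1.58 (SE 0.35, limma adjusted p = 0.0175). It was −0.94 relative to the median gene and stood at −0.81 after quantile normalization (adjusted p = 0.0388). The mitochondrial glutamate carrier Slc25a22 read −0.09 and −0.25 in clone 2 and 0.10 and −0.44 in clone 3, against 0.96 and 1.08 in shControl. All shTug1 arrays lay below both shControl arrays, and the log2 fold change was −1.19 (SE 0.30, limma adjusted p = 0.0228). Slc25a44, which carries branched-chain amino acids, read −1.21 and −1.52 in clone 2 and −0.50 and −0.79 in clone 3, against 0.20 and −0.36 in shControl. It passed by a narrow margin (−0.93, adjusted p = 0.0495 in limma), and its other probe did not differ beyond the spread (−0.14, adjusted p = 0.726). The mean of both probes was −0.53 (adjusted p = 0.187). Slc25a15 (1.06), Slc25a12 and Slc25a47 (0.34) did not pass.

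Slc25a20, the carnitine–acylcarnitine carrier that brings long-chain fatty acids to oxidation, is the sole carnitine carrier of the set. It read −2.56 and −2.45 in clone 2 and −2.02 and −2.34 in clone 3, against −3.71 and −3.37 in shControl. The groups did not overlap. The gene rose by 1.20 (SE 0.30, limma adjusted p = 0.0214, 2.29-fold), and passed in each clone on its own, at 1.03 (adjusted p = 0.043) in clone 2 and 1.36 (adjusted p = 0.0495) in clone 3. Normexp correction reduced the difference to 0.25 (adjusted p = 0.331).

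**Figure D3:**
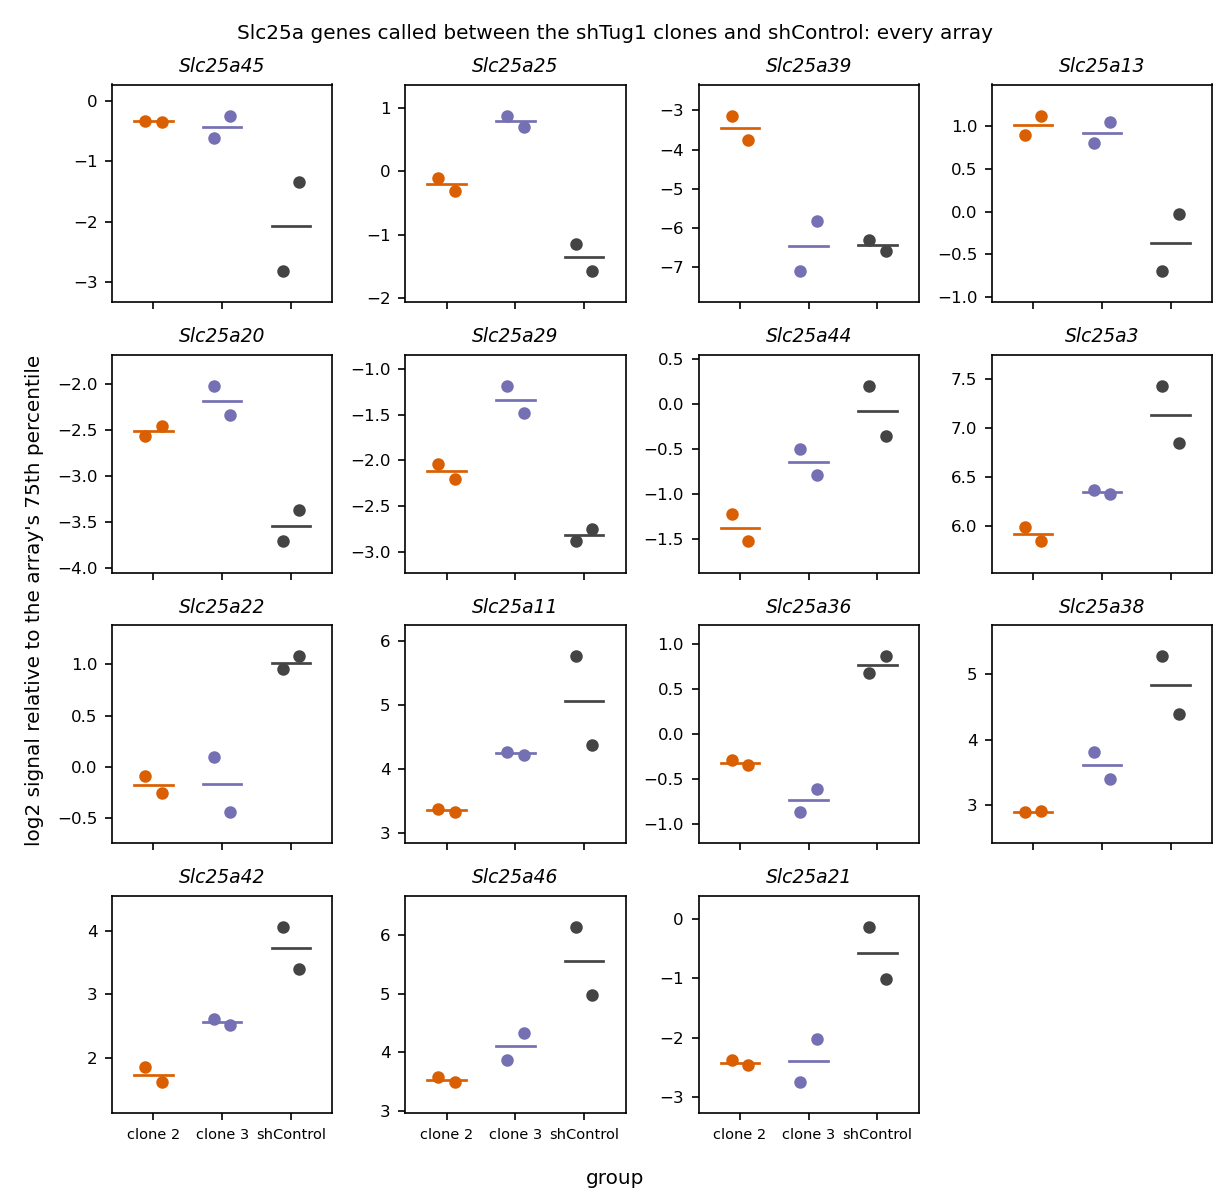
Each panel is one of 15 Slc25a genes that passed for the mean of the shTug1 clones minus shControl, from the largest rise to the largest fall; points are the single arrays and lines the group means, as log2 signal relative to the 75th percentile. In every panel but Slc25a39 the 4 shTug1 arrays lie on the same side of both shControl arrays.

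Among the 11 carriers of metals, cofactors and nucleotides, all of them tested, 1 rose, 2 fell and 8 did not pass. Of all genes, 10.2% rose and 30.4% fell. Slc25a36, a pyrimidine nucleotide carrier, read −0.29 and −0.35 in clone 2 and −0.87 and −0.61 in clone 3, against 0.68 and 0.87 in shControl. The shControl arrays were close to each other and above all others, and the log2 fold change was −1.30 (SE 0.29, limma adjusted p = 0.0173). The other pyrimidine nucleotide carrier, Slc25a33, did not pass on its brighter probe (0.44, adjusted p = 0.322). Its dimmer probe, not well above background on shControl replicate 1, gave 2.83 (adjusted p = 0.0184 in the limma fit over all probes).

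The glutathione carrier Slc25a39 was well above background in clone 2 alone. It read −3.13 and −3.74 in clone 2, against −6.29 and −6.58 in shControl, while the clone 3 arrays read −7.10 and −5.82. It was well above background on both clone 2 arrays and on no array of clone 3 or shControl. Set against the lowest measurable signal, it was at least 1.83-fold higher in clone 2 than in shControl. The gene passed the filter only through clone 2, where it was bright, so its adjusted p in limma (0.0103) is given as a description. The rise counted for the mean of the clones (1.49, adjusted p = 0.0297) is that of clone 2 alone, and it turned to −0.40 with normexp correction. That call also ended without either shControl array (adjusted p = 0.092 and 0.0879), clone 2 replicate 1 (0.0537) or clone 3 replicate 2 (0.0965). Slc25a40, its paralogue, read −1.42, −1.37, −1.29 and −1.0 on the shTug1 arrays, against −1.64 and −1.75 in shControl. All 4 lay above both shControl arrays by a small margin, and the log2 fold change of 0.43 (SE 0.28) did not pass (limma adjusted p = 0.244).

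The mitoferrins, which import iron for haem and iron–sulphur clusters, did not pass in the mean of the clones. Slc25a37, mitoferrin-1, read 1.68 and 2.08 in clone 2 and 2.39 and 2.53 in clone 3, against 2.09 and 1.43 in shControl (log2 fold change 0.41, adjusted p = 0.319 in limma). Slc25a28, mitoferrin-2, read 1.24 and 1.14 in clone 2 and 2.04 and 1.51 in clone 3, against 2.32 and 2.12 in shControl. All shTug1 arrays were below shControl for Slc25a28, whose difference of −0.74 (adjusted p = 0.0836) was close to that of the median gene, and Slc25a37 overlapped. A second Slc25a37 probe was well above background on no array.

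Some cofactor carriers had wide shControl pairs. Slc25a16, linked to coenzyme A handling, read −0.54 and −0.27 in clone 2 and −3.44 and −2.83 in clone 3, against −6.34 and −2.46 in shControl, where only replicate 2 was well above background. Its log2 fold change of 2.63 (SE 0.91) did not pass (adjusted p = 0.0518 in limma) and ran from 0.687 to 4.57 when single arrays were left out. The folate and FAD carrier Slc25a32 read −0.86, −0.32, −1.31 and −2.03 on the shTug1 arrays, against −4.03 and −1.45 in shControl (1.61, adjusted p = 0.0843). For both genes shControl replicate 2 lay within or near the clone 3 values and replicate 1 far below. The S-adenosylmethionine carrier Slc25a26 and the NAD carrier Slc25a51 each had probes of opposite sign. The brighter Slc25a26 probe was at −0.74 (adjusted p = 0.0823) and the other at 1.36 (adjusted p = 0.0179), both from the limma fit over all probes, with that dimmer probe not well above background on shControl replicate 1. Slc25a51 stood at 0.74 (adjusted p = 0.0944) and −1.30 (adjusted p = 0.018) on its probes, each measured on all 6 arrays.

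**Figure D4:**
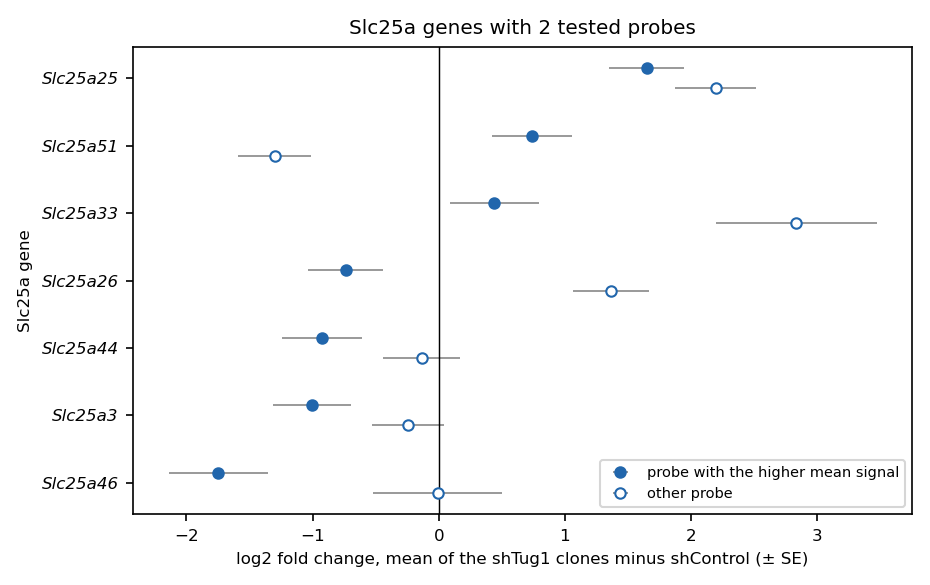
Log2 fold changes with standard errors for the mean of the shTug1 clones minus shControl, from the fit over all probes, for the 7 Slc25a genes with 2 tested probes; filled points are the probe with the higher mean signal and open points the other. The probes of Slc25a25 agree in direction (1.65 and 2.19), while those of Slc25a26 (−0.74 and 1.36) and Slc25a51 (0.74 and −1.30) lie on opposite sides of 0.

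Slc25a46, an outer-membrane member that takes part in mitochondrial fission and cristae upkeep, fell on its brighter probe. That probe read 3.57 and 3.48 in clone 2 and 3.87 and 4.33 in clone 3, against 6.14 and 4.98 in shControl. The log2 fold change was −1.75 (SE 0.39, limma adjusted p = 0.0178), and −0.93 after quantile normalization, where the call was lost (adjusted p = 0.0512). A dimmer probe gave −0.01 (adjusted p = 0.992 in the limma fit over all probes), and the mean of both −0.88 (limma adjusted p = 0.0503). That dimmer probe was not well above background on clone 3 replicate 1 or shControl replicate 1. The deposited intensities of the brighter probe, 12524, 10622, 8337 and 16755 on the shTug1 arrays and 22915 and 11484 in shControl, overlapped before scaling. Unscaled intensities also overlapped for the falls of Slc25a11, Slc25a21, Slc25a22, Slc25a36, Slc25a38, Slc25a42 and Slc25a44. For Slc25a42 they were 3807, 2895, 3479 and 4771 on the shTug1 arrays, against 5437 and 3834 in shControl. Of the uncoupling-type carriers, Slc25a14 (−0.89, adjusted p = 0.0655) and Slc25a27 (−0.06, adjusted p = 0.878) did not pass in limma. Slc25a27 read −4.01 and −4.19 in clone 2 and −3.34 and −2.92 in clone 3, against −3.39 and −3.71 in shControl, so that clone 2 lay below and clone 3 above both shControl arrays.

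Upstream sequences are shown for the 2 largest rises and the 2 largest falls measured on all 6 arrays that have a single start site in the RefSeq promoter table (GRCm38.p6), to show rises and falls side by side. Slc25a25, Slc25a46 and Slc25a21 changed by more than some of them and are not printed under that rule. Each line holds the 250 bases before the annotated start, 5′ to 3′ on the gene's strand, with CG dinucleotides in capitals. Slc25a45 is at chr19:5877572-5877821 on the plus strand and Slc25a13 at chr6:6217174-6217423 on the minus strand, the 2 that rose. Slc25a42, at chr8:70212282-70212531 on the minus strand, and Slc25a38, at chr9:120110132-120110381 on the plus strand, fell.
Slc25a45: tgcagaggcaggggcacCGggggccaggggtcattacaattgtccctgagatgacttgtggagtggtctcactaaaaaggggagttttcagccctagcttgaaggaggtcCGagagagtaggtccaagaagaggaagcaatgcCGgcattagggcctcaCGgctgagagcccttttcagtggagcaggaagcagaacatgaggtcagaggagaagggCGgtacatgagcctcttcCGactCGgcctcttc
Slc25a13: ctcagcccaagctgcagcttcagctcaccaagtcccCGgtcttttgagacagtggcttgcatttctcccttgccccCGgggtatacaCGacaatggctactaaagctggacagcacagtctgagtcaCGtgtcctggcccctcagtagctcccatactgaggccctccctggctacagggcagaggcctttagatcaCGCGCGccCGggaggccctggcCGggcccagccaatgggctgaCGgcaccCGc
Slc25a42: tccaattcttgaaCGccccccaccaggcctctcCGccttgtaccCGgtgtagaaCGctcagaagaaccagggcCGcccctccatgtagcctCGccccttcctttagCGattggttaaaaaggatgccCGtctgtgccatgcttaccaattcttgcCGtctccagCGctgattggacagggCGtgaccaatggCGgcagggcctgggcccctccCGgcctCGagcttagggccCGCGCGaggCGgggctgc
Slc25a38: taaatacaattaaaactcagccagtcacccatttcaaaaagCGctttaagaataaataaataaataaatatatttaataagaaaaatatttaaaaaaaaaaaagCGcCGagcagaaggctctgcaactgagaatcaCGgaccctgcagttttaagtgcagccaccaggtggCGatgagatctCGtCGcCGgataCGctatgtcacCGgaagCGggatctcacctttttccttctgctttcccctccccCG
The windows hold 7 CG dinucleotides in Slc25a45, 11 in Slc25a13, 18 in Slc25a42 and 12 in Slc25a38, so both falls had more than both rises among these 4. Over the full windows of the table, which end 50 bases past the start, the median was 15 CG for 46 windows of 36 Slc25a genes and 7 for all 32851 windows. Over all such windows it was 15 for the genes that rose (8 windows of 6 genes) and 13.5 for those that fell (10 windows of 7 genes). The palindromic NRF1 motif, searched as a single exact sequence, and the ERR motif TNAAGGTCA were each searched on both strands. They were in 0 of the 46 Slc25a windows, and in 0.971% and 1.282% of all windows. With shares that low, 0 among 46 windows does not set the family apart.

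Each clone was also set against the same 2 shControl arrays. In clone 2, 7 of the 38 Slc25a genes rose and 13 fell (10.2% and 33.8% of all genes). These rises include Slc25a39 and Slc25a15, which passed the filter only through clone 2, where they were bright. Their p-values are therefore descriptions (Slc25a15 at least 1.11-fold higher, limma adjusted p = 0.0314). Slc25a16 was counted too (4.0, limma adjusted p = 0.0227), with shControl replicate 1 not well above background. Both clone 2 arrays lay above both shControl arrays for 11 members (28.9%, against 18% of all genes) and below them for 19 (50%, against 61.6%). In clone 3, 3 rose and 2 fell (4.35% and 4.68% of all genes). Both clone 3 arrays lay above shControl for 10 members (26.3%, against 17.1% of all genes) and below it for 16 (42.1%, against 47.8%). Slc25a25 and Slc25a20 passed as higher in each clone, and Slc25a21 and Slc25a36 as lower in each. For Slc25a25 the log2 fold change was 1.15 in clone 2 and 2.14 in clone 3, and for Slc25a21 it was −1.85 in clone 2 and −1.81 in clone 3. Without shControl replicate 2 the clone 3 counts were 10 and 12, when 12.9% of all genes rose and 40.2% fell. They were 0 and 0 by limma without clone 3 replicate 1 (4 and 4 at an unadjusted p under 0.05) and without clone 3 replicate 2 (3 and 3).

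**Figure D5:**
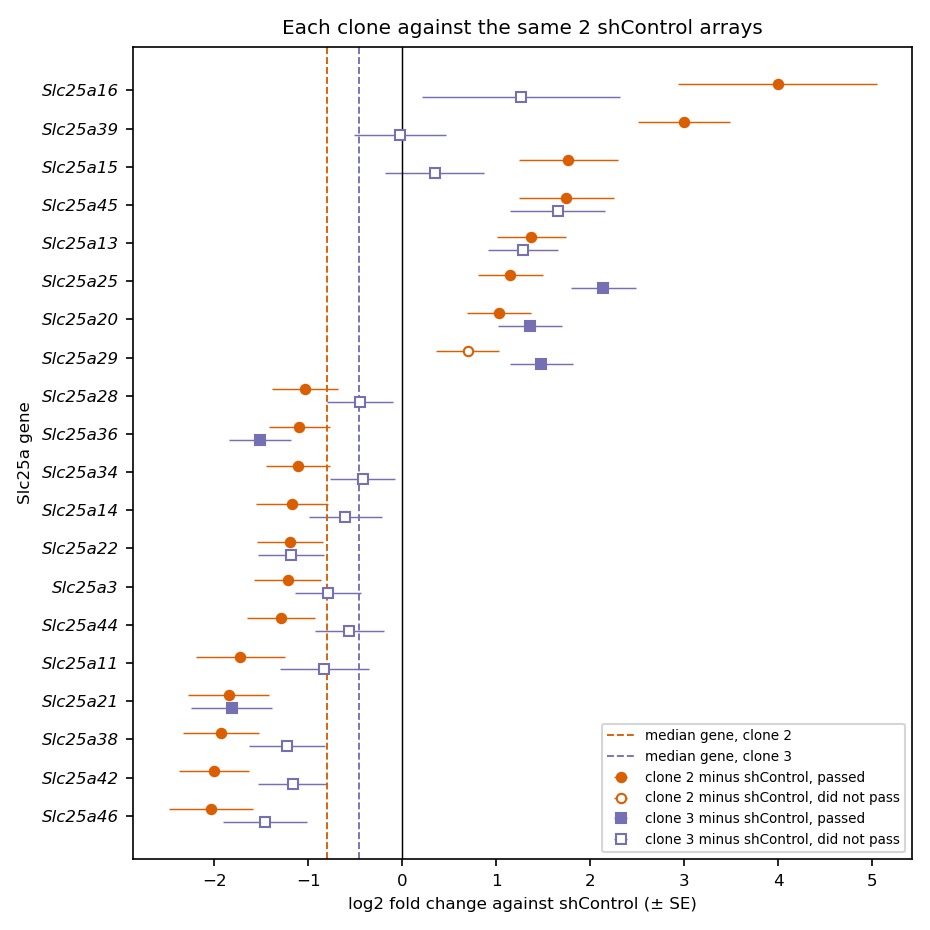
Log2 fold changes with standard errors of clone 2 (circles) and clone 3 (squares) minus the same 2 shControl arrays, for Slc25a genes that passed in at least 1 of them; filled symbols passed. The dashed lines are the median genes at −0.80 (clone 2) and −0.46 (clone 3), and Slc25a39 and Slc25a16 show the widest gaps between the clones.

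Clone 3 against clone 2 is the comparison in which all arrays shared a slide. Of the 38 Slc25a genes, 0 rose and 1 fell at an adjusted p under 0.05 in limma, beside 0.345% and 0.922% of all genes, and 4 and 3 had an unadjusted p under 0.05. Both clone 3 arrays lay above both clone 2 arrays for 23 genes (60.5%, against 58.9% of all genes) and below them for 7 (18.4%, against 16.4%). The median log2 fold change was 0.29, beside 0.38 for all genes. The fall was that of Slc25a39, at least 4.49-fold lower in clone 3 than in clone 2 (adjusted p = 0.0362), again a gene that passed the filter only through clone 2. The fitted difference of −3.02 is against arrays not above background and is no measured size. Its call ended after quantile normalization (−3.09, adjusted p = 0.0757), with no filter on dim probes (adjusted p = 0.0681), without either shControl array (adjusted p = 0.0612 for each) and without clone 3 replicate 1 (−2.38, adjusted p = 0.299) or replicate 2 (−3.66, adjusted p = 0.0695), and its size fell to −0.69 with normexp correction (adjusted p = 0.255). Slc25a16 (−2.73, adjusted p = 0.383), which also read higher in clone 2, and the ornithine carrier Slc25a15 (−1.42, adjusted p = 0.375) did not pass. Slc25a15 read −4.83 and −6.34 in clone 3, where it was not well above background, against −4.32 and −4.01 in clone 2, where it was. In shControl it read −6.22 and −5.64, not well above background.

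Other genes of mitochondrial transport were taken as a list of 39, of which 35 were tested. For the mean of the clones 4 rose, 13 fell and 18 did not pass, beside 10.2% and 30.4% of all genes, with a median log2 fold change of −0.71, beside −0.64 for all genes. The uncoupling proteins Ucp1, Ucp2 and Ucp3 did not pass the filter. The sideroflexins, serine and amino acid carriers of a separate family, fell in 4 of 5 genes, beside 30.4% of all genes: Sfxn5 by 2.0 (adjusted p = 0.00903 in limma), Sfxn1 by 1.80, Sfxn3 by 1.76 and Sfxn2 by 1.23. The pyruvate carrier subunits Mpc1 (−0.66) and Mpc2 (−0.54) did not pass. Of the outer-membrane channels, Vdac2 fell by 1.31 (−0.68 relative to the median gene) and Vdac1 by 0.89 (−0.25), while Vdac3 (−1.0) did not pass. Vdac1 and Vdac2 were about as bright as Slc25a3, whose log2 fold change went from −1.0 to −0.01 after quantile normalization. Whether the calls of this list, here and in the next paragraph, hold under that scaling was not tested. The values relative to the median gene do not replace that check.

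In the import path that inserts carrier proteins into the inner membrane, 3 of 13 genes rose and 3 fell, beside 10.2% and 30.4% of all genes. Timm9, a small chaperone of the intermembrane space, rose by 1.80 (SE 0.32, adjusted p = 0.013 in limma), and its partner Timm10 fell by 1.24 (SE 0.38, adjusted p = 0.0359). Relative to the median gene the fall of Timm10 was −0.60. It passed in clone 2 (−1.64, limma adjusted p = 0.0234) and not in clone 3 (−0.85, adjusted p = 0.198), while Timm9 passed in each clone. Timm9 read 0.51, 0.19, 0.85 and 1.29 on the shTug1 arrays, against −1.36 and −0.82 in shControl. Timm10 read 2.44, 2.42, 3.35 and 3.10 on the shTug1 arrays, against 4.64 and 3.5 in shControl. In the mean of the clones Tomm70a, the receptor for carrier precursors, rose by 1.54 and Timm29 by 2.03 (well above background on 1 of 2 shControl arrays). For both genes clone 3 replicate 1 lay below shControl replicate 2. Tomm70a passed in clone 2 (2.12, limma adjusted p = 0.0171) and not in clone 3 (0.97, adjusted p = 0.188). So did Timm29 (3.10, adjusted p = 0.0132 in clone 2, and 0.96, adjusted p = 0.259 in clone 3, by limma). Tomm40, the outer-membrane pore, fell by 1.49 and Tomm20 by 0.87 (−0.85 and −0.23 relative to the median gene). In the calcium uniporter list 1 of 7 genes rose, 2 fell and 4 did not pass, beside the same 10.2% and 30.4% of all genes. Mcub was the rise (3.42, on 1 of 2 shControl arrays), and Smdt1 (−1.35) was among the falls. Abcb8 fell by 1.51 among the 3 inner-membrane ABC transporters.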

How the data were processed

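The members and lists were chosen with earlier results of these data known. The deposited scanner files give an intensity per spot, background-subtracted and spatially detrended, written by the scanner software Feature Extraction 11.0.1.1 per the file headers. The deposited series table holds log2 values of 19819 probes (37 of the 56 Slc25a probes) whose scaling and centring stay unknown and whose direction followed the arrays; its columns followed their own arrays (r from 0.9981 to 1) with medians of 9.01 and 8.98 in clone 2, 9.11 and 9.09 in clone 3, and 9.13 and 9.13 in shControl.

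Control spots and non-uniform or population-outlier spots were left out, log2 intensity was taken relative to the 75th percentile, and spots of a probe were averaged. Accessions matched RefSeq symbols (assembly GRCm38.p6) for 27234 probes. Probes well above background on each replicate of 1 group or more were kept (25558, of which 14 were lost to outlier marks), a probe with several spots counting as such where at least 0.5 of them were, and each gene kept its probe with the highest mean signal (21473 genes). limma 3.58.1 in R 4.3.3 fitted 3 group means over all 6 arrays (3 residual, 4.69 prior degrees of freedom). Tests were two-sided, p-values were adjusted by Benjamini-Hochberg across the genes tested, and calls were made under 0.05. A second fit ran over all kept probes. No permutation test was used, since the smallest exact p of 4 arrays against 2 is 0.0667. A probe on no array of a side above background has only a bound: the mean of the bright group divided by that of the dim group, each dim array taken at its own signal or at its lowest well-above-background signal, whichever was higher. Array number limits the precision, and no spot was saturated (0 on every array).

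The named genes were all Slc25a genes. Values in every array were given for up to 12 rises and falls of the mean comparison, up to 5 of clone 3 against clone 2 and 11 fixed genes, and Slc25a15, Slc25a16, Slc25a27, Slc25a31 and Slc25a32 were added after their values were seen, as were Timm9 and Timm10 outside the family. Alternatives were quantile normalization, normexp correction (offset 50, on median spot and background signals because the files hold no mean signal), no filter, a filter on all 6 arrays, the deposited series values, the replicate number as a block, the mean over a gene's probes, and leaving out each array. Promoter sequences are RefSeq's. Of the genes counted, 1 Slc25a gene and 1 other transport gene are not reported here by name or drawn.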

Additional observations from a re-analysis of the deposited data

Results flagged for a closer look

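Slc25a39 was the 1 member that passed for clone 3 against clone 2, at least 4.49-fold lower in clone 3 (fitted log2 difference −3.02, limma adjusted p = 0.0362). It passed the filter only through clone 2, where it was bright, so the p is a description. Both clone 3 arrays lay below both clone 2 arrays, and neither clone 3 array was well above background.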

How the results depend on the processing

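Of the 16 Slc25a genes that passed for the mean of the shTug1 clones minus shControl, 8 also passed in all 7 alternatives that keep the 6 arrays (among them Slc25a13, Slc25a21, Slc25a22, Slc25a25, Slc25a36, Slc25a38 and Slc25a42), and 14 kept their direction in all 13 alternatives. The exceptions in direction were Slc25a3 and Slc25a39. Where a call or value changed below, the cause was not tested. Normexp correction gave 17 falls for the mean of the clones and 8 for clone 3, where 59.3% and 25.1% of all genes fell. Quantile normalization gave 7 falls in clone 2 and 1 in clone 3, where 16.5% and 3.46% of all genes fell. Without a filter on dim probes clone 3 had 1 rise and 0 falls by limma (over 47 genes; 0.928% and 0.974% of all genes), and with the stricter filter 5 and 4 (over 33 genes; 5.84% and 11.6% of all genes). The fall between clone 3 and clone 2 was lost, leaving 0 by limma, under quantile normalization, no filter, the stricter filter and the deposited series values, with 4, 3, 0 and 2 falls at an unadjusted p under 0.05. Slc25a39 was not among the genes of the stricter filter or the series values.

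Leaving out 1 array at a time gave 0 to 10 rises and 0 to 15 falls for the mean of the clones, 2 to 11 and 5 to 15 in clone 2, 0 to 10 and 0 to 12 in clone 3, and 0 to 1 falls between the clones. The clone 2 median minus that of all genes ran from 0.211 to 0.738. A group left with a single array was assumed to vary like the others.

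The signs of the following values turned for the mean of the clones. Quantile normalization gave 0.0486 for Slc25a17, 0.68 for Slc25a24, 0.26 for Slc25a27 and 0.66 for Slc25a4. Normexp correction gave −0.45 for Slc25a15, 0.11 for Slc25a24, −0.40 for Slc25a39 and −0.47 for Slc25a47. The deposited series values gave 0.074 for Slc25a17, 0.70 for Slc25a24, 0.29 for Slc25a27, 0.0151 for Slc25a3 and 0.67 for Slc25a4. The mean over probes gave 0.31 for Slc25a26 and −0.28 for Slc25a51. With arrays left out, Slc25a1 ran from −0.399 to 0.481, Slc25a5 from −0.28 to 1.05, Slc25a12 from −0.127 to 0.334, Slc25a24 from −0.373 to 0.329, Slc25a27 from −0.22 to 0.10 and Slc25a33 from −0.0289 to 0.909.

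For clone 3 minus clone 2 other values turned. Quantile normalization gave −0.00411 for Slc25a12, −0.18 for Slc25a3, −0.0807 for Slc25a33, 0.0493 for Slc25a35 and −0.0138 for Slc25a4. The series values gave −0.19 for Slc25a3, −0.067 for Slc25a33, 0.0325 for Slc25a35 and −0.00443 for Slc25a4. The mean over probes gave −0.68 for Slc25a33, −0.45 for Slc25a46 and −0.027 for Slc25a51. With arrays left out, Slc25a35 ran from −0.332 to 0.206, Slc25a13 from −0.213 to 0.0355, Slc25a21 from −0.331 to 0.393, Slc25a22 from −0.265 to 0.27, Slc25a5 from −0.37 to 0.318 and Slc25a45 from −0.277 to 0.0957.

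Replicate numbers did not pair the samples: deviations of same-numbered arrays correlated at −0.089 between clone 3 and clone 2, −0.038 between clone 2 and shControl and 0.106 between clone 3 and shControl. With the replicate number as a block, 7 Slc25a genes rose and 9 fell for the mean of the clones (10.5% and 30.1% of all genes). The number of arrays limits the precision of all 38 genes, and 5 of them were well above background on fewer than 6 arrays.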
